A study of Mus musculus with 24 samples.

Results

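Ischemic preconditioning, in which short bouts of ischemia and reperfusion precede a longer one, was examined here at the level of left ventricular transcripts in wildtype mice. The comparison rests on 6 of the 24 arrays of the series, 3 from wildtype hearts after preconditioning (IP0) and 3 from wildtype sham-operated hearts. The labels number the replicates without naming mice, and the methods give separate animals for each condition. All 18820 genes paired with a single gene symbol were compared, each by its probe set with the highest mean over the 24 arrays. Values are log2 intensities, on which a difference of 1 is a 2-fold change.

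IP0 hearts went through 4 cycles, each with 5 min of occlusion of the left coronary artery and 5 min of reperfusion, and the labels give no longer ischemia after them. Sham hearts are labelled as untreated and sham-operated. All mice were adult males of the strain the labels write as BL6C57, were entrained to a light-dark cycle, were operated on at lights-on under pentobarbital and had their hearts flushed with cold saline. The other wildtype arrays of the series held hearts after 30 min of ischemia without reperfusion (I30) and after 30 min of ischemia with 60 min of reperfusion (I30R60), again 3 of each. The same 4 treatments, IP0, I30, I30R60 and sham, were given to Per2 KO mice, which lack the clock gene Per2 throughout the body, so nothing in that genotype is specific to heart muscle. The methods give the wildtype mice of the arrays as C57BL6 from a supplier and do not name them as littermates of the knockout mice.

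Brief ischemia is known as a stimulus that protects heart muscle against a later infarct. Within minutes of such a stimulus, cells transcribe immediate early genes from transcription factors that are already present, such as CREB, serum response factor and ATF proteins. The products include further transcription factors of the AP-1, EGR and NR4A families, and also proteins that end the response by destroying messenger RNA or removing phosphate from MAP kinases.

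Of the 18820 genes, 98 rose and 62 fell in IP0 hearts relative to sham hearts. A gene was called when its p value, from a limma model with a mean for each of the 8 groups lay under 0.05 after Benjamini-Hochberg adjustment across the 18820 genes. The rises were 0.521% and the falls 0.329% of the genes tested. A change of at least 2-fold was called for 36 rises and 2 falls, and the median log2 fold change was 0.78 among the rises and -0.55 among the falls, against 0.000683 over all genes. With each array centred on its median, 160 genes rose and 32 fell, so that rises made up 83.3% of the calls instead of 61.3%. That centring moved the median of all genes to 0.06.

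**Figure D1:**
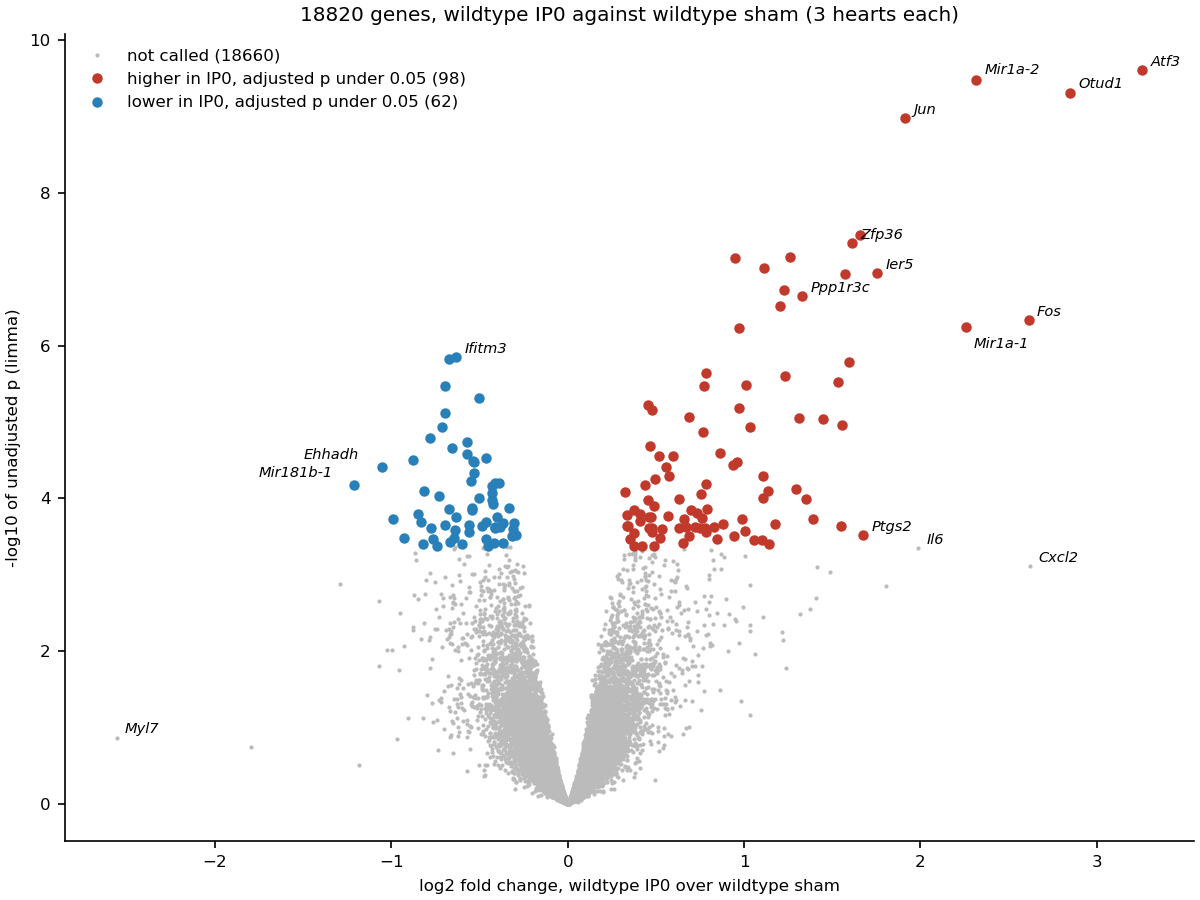
Log2 fold change of each gene in wildtype IP0 over wildtype sham hearts (x axis) against the negative log10 of its unadjusted p (y axis). Red points are the 98 genes called higher and blue points the 62 called lower. Of the called genes, Atf3, Otud1 and Fos lie farthest to the right. Cxcl2, at 2.62, and Myl7, at -2.56, were not called.

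Each call rests on 3 hearts a group. Without any 1 of the 6 arrays, between 42 and 56 rises and between 13 and 32 falls were called, and 32 of the 98 rises and 6 of the 62 falls were called in all 6 of these fits. In a model of the 6 arrays alone, 22 rises and 9 falls were called. The 3 IP0 hearts lay on one side of the 3 sham hearts in all 160 called genes. Among all genes, the 3 IP0 hearts lay above the 3 sham hearts in 9.80% and below them in 9.73%.

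The tissue had the markers its label asks for. The mean log2 value of 7 heart muscle markers was 12.54 to 12.58 in IP0 hearts and 12.52 to 12.55 in sham hearts. Transcripts of atrial muscle were uneven among the sham hearts. Myl7, the atrial regulatory light chain, had values of 3.17, 3.14 and 3.20 in IP0 hearts, against 8.24, 5.22 and 3.73 in sham hearts. Myl7 was thus above 5 in 2 of the 6 arrays, both of them sham. Without the arrays with Myl7 above 5, which leaves 1 wildtype sham array, 40 rises and 5 falls were called, and with Myl7 as a covariate 54 and 34. The mean of 7 atrial markers was 5.15 to 5.31 in IP0 hearts and 5.57 to 7.07 in sham hearts, all 7 had a negative fold change (median -0.57), and none was called. The mean of 7 markers of smooth muscle and pericytes was 7.52 to 7.74 in IP0 hearts and 7.84 to 8.11 in sham hearts, also without a call. In such bulk tissue, fewer cells of a type and less RNA per cell cannot be told apart. None of the 13 lists of cell type markers held a called gene, and those of neutrophils had mean values of 3.91 to 4.11 in IP0 hearts and 3.92 to 3.97 in sham hearts.

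The subunits of AP-1 and their ATF relatives, which pair through leucine zippers to bind DNA, rose in part. Of 22 measured, 5 rose (Atf3, Fos, Jun, Fosl2 and Junb), none fell, and the list had a median log2 fold change of 0.17. Atf3 had the largest rise of all called genes. Atf3, induced by many kinds of stress, had log2 values of 10.26, 10.93 and 10.78 in IP0 hearts, against 7.48, 7.93 and 6.80 in sham hearts. Every IP0 heart was well above every sham heart, and the fold change was 9.57 (log2 3.26, standard error 0.28, adjusted p = 3.07e-06 by limma). Fos had values of 8.81, 9.22 and 8.85 in IP0 hearts, against 6.56, 7.28 and 5.20 in sham hearts. The sham hearts were the spread-out group here, and Fos rose 6.12-fold (log2 2.61, standard error 0.36, adjusted p = 0.000582). Jun had values of 10.13, 10.51 and 10.43 in IP0 hearts, against 8.63, 8.63 and 8.08 in sham hearts, a 3.76-fold rise (adjusted p = 4.94e-06). Fosl2 rose 2.04-fold and Junb 1.92-fold, with adjusted p values of 0.00595 and 0.0418. Fosb, with values of 8.40, 9.15 and 8.10 in IP0 hearts and 6.50, 7.43 and 6.31 in sham hearts, did not pass (log2 fold change 1.80, adjusted p = 0.0926). Of the 5 calls, those of Atf3, Fos and Jun held without any 1 of the 6 arrays.

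**Figure D2:**
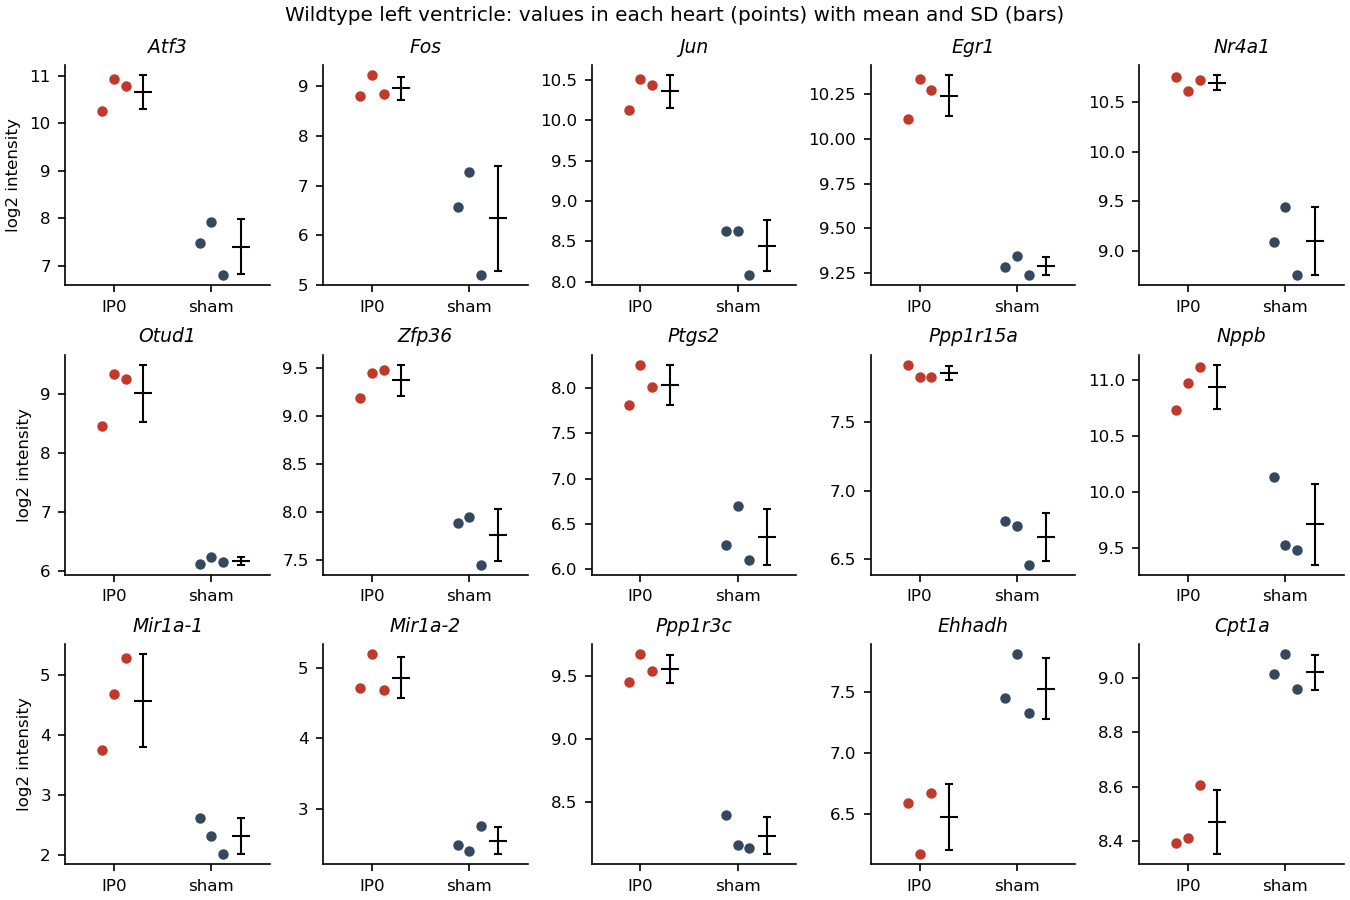
Log2 intensity (y axis) of 15 genes in each wildtype heart, with the 3 IP0 hearts left (red) and the 3 sham hearts right (dark) in each panel. Points are hearts, and the bar beside them is the mean with its SD. IP0 and sham hearts do not overlap in any panel, and the sham hearts of Fos spread over 5.20 to 7.28.

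Transcription factors of the NR4A, EGR and KLF families formed a second group. Of 38 measured early transcription factors, 7 rose and none fell, with a median of 0.24. The 3 NR4A orphan nuclear receptors, which act without a known ligand, all rose. Nr4a1 had values of 10.75, 10.60 and 10.72 in IP0 hearts, against 9.09, 9.44 and 8.76 in sham hearts, a 3.02-fold rise (adjusted p = 0.00156). Nr4a2 rose 2.73-fold (adjusted p = 0.00504) and Nr4a3 2.62-fold (adjusted p = 0.0347). Egr1, a zinc finger factor induced by growth signals, had values of 10.11, 10.33 and 10.28 in IP0 hearts, against 9.29, 9.35 and 9.24 in sham hearts. Both groups were tight, and the 1.93-fold rise had an adjusted p of 0.000166. Klf6, another zinc finger factor, rose 1.72-fold (adjusted p = 0.00204), and Arid5a, an RNA-binding protein that stabilises Il6 messenger RNA, rose 2.20-fold (adjusted p = 0.0223). Srf, the serum response factor itself, had a small rise of 1.28-fold (adjusted p = 0.0443), from values of 9.25, 9.32 and 9.41 in IP0 hearts and 9.02, 8.93 and 8.97 in sham hearts. The calls of Nr4a1, Nr4a2, Egr1 and Klf6 held without any 1 array, and those of Nr4a3, Arid5a and Srf did not.

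Genes that act as feedback on signalling or on messenger RNA had the highest median of the 22 pathway lists. Of 44 measured, 14 rose, none fell, and the median was 0.66. Zfp36, tristetraprolin, which marks AU-rich messenger RNA for decay, had values of 9.18, 9.45 and 9.48 in IP0 hearts, against 7.89, 7.95 and 7.45 in sham hearts. It rose 3.06-fold (adjusted p = 0.000144), and its relative Zfp36l1 1.96-fold (adjusted p = 0.0043). Btg2, which slows the cell cycle and recruits deadenylases, had values of 10.01, 10.28 and 10.31 in IP0 hearts, against 8.73, 8.90 and 8.25 in sham hearts, a 2.97-fold rise (adjusted p = 0.0002). The immediate early gene Ier5 rose 3.37-fold (adjusted p = 0.0002), and Ier2 and Ier3, of similar name, rose 2.01-fold and 1.58-fold. Ccn1, a matricellular protein, was the tightest of the group, with values of 11.10, 11.12 and 11.08 in IP0 hearts, against 9.86, 9.85 and 9.81 in sham hearts. Its rise was 2.40-fold (adjusted p = 0.000166). The polo-like kinases Plk2 and Plk3 rose 2.16-fold and 1.98-fold, with adjusted p values of 0.0002 and 0.0347. Rgs1, a regulator of G protein signalling, rose 1.96-fold (adjusted p = 0.000656). The other called members were Sik1, Nfkbid, Gem and Homer1, which rose 1.39-fold to 1.80-fold. Of the 14 calls, 7 held without any 1 array.

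The phosphatases of MAP kinases did not move as a family. Of 12 measured, Dusp1 rose, Dusp7 fell and the other 10 did not pass, with a median of 0.18. Dusp1, a nuclear phosphatase and an early gene, had values of 11.58, 11.72 and 11.72 in IP0 hearts, against 10.95, 10.83 and 10.43 in sham hearts (1.91-fold, adjusted p = 0.0132). Dusp7, a cytosolic phosphatase, had values of 9.26, 9.62 and 9.51 in IP0 hearts, against 10.34, 10.04 and 10.36 in sham hearts (log2 fold change -0.78, adjusted p = 0.00787).

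Otud1, a deubiquitinating enzyme, stood next to Atf3 in size of rise. Its values were 8.45, 9.33 and 9.25 in IP0 hearts, against 6.12, 6.24 and 6.14 in sham hearts. The rise was 7.19-fold (log2 2.85, standard error 0.25, adjusted p = 3.07e-06), and it was called without any 1 of the 6 arrays. Of 32 enzymes of ubiquitin transfer and removal, 2 rose, and the other was Asb2, a ubiquitin ligase subunit of muscle, with a 1.27-fold rise (adjusted p = 0.0367). The list as a whole had a median of 0.0006.

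Promoter sequences of the genes that rose are given where they hold a binding motif of one of the factors named above. RefSeq sequence of build GRCm38.p6 was found for 14749 of the genes tested, among them 75 of the 98 rises and 51 of the 62 falls, and the 250 bases before the start were searched on both strands. The full cyclic AMP response element TGACGTCA, bound by CREB and ATF proteins, was in 8.0% of these rises (6 genes), none of the falls and 2.14% of all genes. The CArG box, bound by serum response factor, was in 4.0% of the rises (3 genes, Zfp36, Srf and Asb2), none of the falls and 1.26% of all genes. The AP-1 site TGACTCA was in 2.67% of the rises, 3.92% of the falls and 3.8% of all genes, and the heat shock element GAANNTTC in 5.33%, 3.92% and 5.79%. The E-box CACGTG, bound by CLOCK with its partner and by other factors, was in 18.7% of the rises (14 genes), 15.7% of the falls and 7.12% of all genes. None of these motifs holds another of them whole. Such matches describe letters in a window and not binding. Stretches of 70 bases follow for called genes of the groups above, 5′ to 3′ on the strand of the gene, with the motif in capitals.
Btg2, chr1:134079283-134079352, minus strand: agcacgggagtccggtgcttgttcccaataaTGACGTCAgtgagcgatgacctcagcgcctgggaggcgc
Ppp1r15a, chr7:45526269-45526338, minus strand: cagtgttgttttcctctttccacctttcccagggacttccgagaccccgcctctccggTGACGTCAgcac
Plk2, chr13:110394951-110395020, plus strand: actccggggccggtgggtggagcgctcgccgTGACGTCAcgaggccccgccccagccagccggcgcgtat
Dusp1, chr17:26508577-26508646, minus strand: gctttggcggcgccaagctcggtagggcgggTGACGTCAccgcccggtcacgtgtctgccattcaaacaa
Zfp36, chr7:28379247-28379316, minus strand: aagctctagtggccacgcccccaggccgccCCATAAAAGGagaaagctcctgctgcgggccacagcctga
Srf, chr17:46556195-46556264, minus strand: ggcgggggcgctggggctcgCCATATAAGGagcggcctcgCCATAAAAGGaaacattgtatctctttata
Otud1, chr2:19657645-19657714, plus strand: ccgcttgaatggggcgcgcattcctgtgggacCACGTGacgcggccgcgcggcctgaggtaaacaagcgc

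The capitals mark the cyclic AMP response element in Btg2, Ppp1r15a, Plk2 and Dusp1, the CArG box in Zfp36 and, as a pair, in Srf, and the E-box in Otud1. The Dusp1 stretch also holds an E-box, left in lower case. Btg2, Ppp1r15a, Plk2 and Dusp1 are 4 of the 6 rises with the response element.

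Genes of growth arrest and of the translation checkpoint rose in part. Of 26 genes of growth arrest and the p53 response, 4 rose and none fell (median 0.17). Gadd45g, a stress sensor of the GADD45 family, had values of 8.50, 8.93 and 8.58 in IP0 hearts, against 7.39, 7.64 and 7.06 in sham hearts, a 2.48-fold rise (adjusted p = 0.00504). Ddit4, an inhibitor of the growth kinase complex mTORC1, rose 2.93-fold (adjusted p = 0.0367), a call that was lost when any 1 of the 6 arrays was left out. Phlda1 rose 2.15-fold (adjusted p = 0.0169), and Btg2 is the remaining one. Of 32 genes of the integrated stress and unfolded protein responses, Ppp1r15a alone was called. It encodes GADD34, which brings a phosphatase to the initiation factor eIF2-alpha, and it had values of 7.92, 7.83 and 7.83 in IP0 hearts, against 6.78, 6.74 and 6.46 in sham hearts (2.30-fold, adjusted p = 0.000409). Among 38 heat shock proteins and co-chaperones only Dnajb4, a partner of HSP70, was called (1.47-fold, adjusted p = 0.0136). The median of the heat shock list was 0.14, and Hspa1a, Hspa1b, Hsp90ab1 and Hsf1 were not among its 38 measured members. Hspa8, the constitutive HSP70, had values of 12.51, 12.64 and 12.71 in IP0 hearts and 12.48, 12.43 and 12.49 in sham hearts (log2 fold change 0.15, adjusted p = 0.438).

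Some genes known from activated endothelium rose. Of 31 measured, 4 rose and none fell, with a median of 0.29. Apold1, an early response gene of endothelial cells, had values of 9.61, 9.77 and 9.97 in IP0 hearts, against 8.49, 8.63 and 7.58 in sham hearts (2.94-fold, adjusted p = 0.00595). Adamts1, a secreted matrix protease, had values of 8.70, 9.24 and 9.17 in IP0 hearts, against 7.80, 7.81 and 7.82 in sham hearts (2.34-fold, adjusted p = 0.000291). Ptgs2, the inducible cyclooxygenase COX-2, rose 3.19-fold and Edn1, which encodes the vasoconstrictor endothelin 1, 2.21-fold. Their adjusted p values were 0.0418 and 0.0486, and neither call held in all fits with 1 array left out. Markers of endothelial cells as such did not rise with them. Their mean value was 8.71 to 8.79 in IP0 hearts and 8.81 to 8.90 in sham hearts, with 2 of 8 above 0.

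No cytokine or chemokine passed the test, although several had large fold changes. Of 43 measured, none was called, 35 had a positive fold change and the median was 0.17. Il6, interleukin 6, had values of 5.59, 5.81 and 5.16 in IP0 hearts, against 3.34, 4.13 and 3.13 in sham hearts, and its adjusted p was 0.0506 for a log2 fold change of 1.99. Cxcl2, a neutrophil chemokine, had values of 7.10, 7.53 and 6.75 in IP0 hearts, against 4.91, 5.85 and 2.76 in sham hearts (log2 fold change 2.62, adjusted p = 0.0696). The IP0 hearts were above the sham hearts in both genes, and for Cxcl2 the sham hearts differed among themselves by more than the fold change. Il1b, interleukin 1 beta, had a log2 fold change of 1.32 (adjusted p = 0.137).

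Few genes known from the muscle cell itself were called. Of 28 ventricular stress and contractile genes, 2 rose and none fell (median 0.07). Nppb, which encodes the B-type natriuretic peptide released by strained ventricles, had values of 10.73, 10.98 and 11.12 in IP0 hearts, against 10.13, 9.52 and 9.48 in sham hearts (2.35-fold, adjusted p = 0.00211). Xirp1, an actin-binding protein of the intercalated disc, had values of 9.99, 10.47 and 10.67 in IP0 hearts, against 9.74, 9.46 and 9.63 in sham hearts (1.70-fold, adjusted p = 0.00667). Both calls held without any 1 array, that of Xirp1 narrowly (highest adjusted p 0.05). The following 4 were picked after their values were seen. Lrrc10, a heart-restricted leucine-rich repeat protein, rose 1.61-fold, and Myh7b, a slow-type myosin heavy chain, 1.71-fold. Smyd1, a methyltransferase of striated muscle, rose 1.39-fold, and Jph2, the junctophilin that ties transverse tubules to the sarcoplasmic reticulum, 1.43-fold. Their adjusted p values ran from 0.00247 for Myh7b to 0.0115 for Jph2. Lrrc10, Myh7b and Smyd1 were called in all 6 fits with 1 array left out, and Jph2 in 4. A second Jph2 probe set of similar level had a log2 fold change of 0.22 (adjusted p = 0.483 by limma over all probe sets). Of 27 splicing factors, cyclins and kinases of RNA processing, 3 rose, namely Hexim1, an inhibitor of the elongation factor P-TEFb (1.65-fold), Srsf3 (1.41-fold) and Tra2b (1.37-fold), both splicing factors. Their adjusted p values were 0.0367, 0.0181 and 0.0367, none held without each array, and the list had a median of 0.04. Other probe sets of Srsf3 (log2 fold changes 0.49 and 0.40) and Tra2b (0.45) did not pass over all probe sets (adjusted p 0.0578, 0.642 and 0.172 by limma).

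Of 303 microRNA genes tested, 3 rose (0.990%) and 2 fell (0.660%), and 3 small nucleolar RNA genes rose. MicroRNAs silence messenger RNAs that pair with their seed, the bases 2 to 8, and miR-1 and miR-133 are the classic microRNAs of striated muscle. Whether a probe set reads the mature microRNA, its hairpin or its host transcript was not tested. Mature sequences from RefSeq, build GRCm38.p6, were at hand for 3 of the 5 called genes and are shown with the seed in capitals to identify the RNAs these genes encode. For Mir1a-1 the sequence at hand is that of the 5p arm, which is not the arm known as miR-1 in muscle and has another seed. No 2 of them share a seed.
mmu-miR-1a-1-5p, from Mir1a-1, chr2:180389057-180389079, plus strand: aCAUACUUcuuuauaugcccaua
mmu-miR-181b-5p, from Mir181b-1, chr1:137966650-137966673, plus strand: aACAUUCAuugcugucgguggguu
mmu-miR-107-3p, from Mir107, chr19:34820700-34820722, minus strand: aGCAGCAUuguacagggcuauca

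Both genes of miR-1 rose. Mir1a-1 had values of 3.75, 4.69 and 5.29 in IP0 hearts, against 2.63, 2.32 and 2.02 in sham hearts. It rose 4.77-fold (log2 2.26, standard error 0.31, adjusted p = 0.000656). Mir1a-2 had values of 4.71, 5.19 and 4.68 in IP0 hearts, against 2.48, 2.39 and 2.76 in sham hearts, a 4.98-fold rise (log2 2.32, standard error 0.20, adjusted p = 3.07e-06). The sham values of both lay at or below the lower quartile of an array (2.72 to 2.80), and the IP0 values above it. Whether such low values stand above background was not tested, since no detection calls were used, and the size of these folds is uncertain for that reason. Since both genes encode miR-1, a probe set of one may also bind RNA of the other. Mir133a-1 had values of 6.13, 6.31 and 6.42 in IP0 hearts, against 5.50, 4.79 and 5.26 in sham hearts (2.15-fold, adjusted p = 0.0252). It lies beside Mir1a-2 inside the genes Mib1 and Mir133a-1hg. Mib1 itself had a log2 fold change of -0.17 (adjusted p = 0.46). Of 32 microRNA genes of heart and muscle, these 3 rose and none fell, with a median of 0.03.

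Mir181b-1 and Mir107 fell. Mir181b-1 had values of 3.47, 2.96 and 3.35 in IP0 hearts, against 4.35, 4.36 and 4.71 in sham hearts (log2 fold change -1.21, adjusted p = 0.0197), the largest fall among all called genes. Mir107 had values of 3.50, 3.72 and 3.97 in IP0 hearts, against 4.13, 4.78 and 4.75 in sham hearts (log2 fold change -0.82, adjusted p = 0.0486). It lies inside Pank1, a pantothenate kinase of coenzyme A synthesis, which had a log2 fold change of -0.31 (adjusted p = 0.145). The small nucleolar RNA Snord14e rose 3.16-fold, with values of 8.52, 8.89 and 8.91 in IP0 hearts, against 7.05, 7.37 and 6.93 in sham hearts (adjusted p = 0.000133), while none of the 3 probe sets of its host gene Hspa8 passed (log2 fold changes 0.15, 0.13 and 0.08, adjusted p 0.503, 0.585 and 0.813 over all probe sets). Snord118 and Snora61, picked after their values were seen, rose 2.45-fold and 1.95-fold. The 3 snoRNA genes were 5.17% of the 58 tested. With 1 array left out, Mir1a-1, Mir1a-2 and Snord14e were called in all 6 fits. Mir133a-1, Mir181b-1, Snord118 and Snora61 were called in 2 of the 6 fits and Mir107 in 1.

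Genes of fuel use moved in both directions. Ppp1r3c, which tethers protein phosphatase 1 to glycogen and favours glycogen synthesis, had values of 9.45, 9.68 and 9.55 in IP0 hearts, against 8.40, 8.16 and 8.13 in sham hearts. The groups were far apart and the rise was 2.51-fold (log2 1.33, standard error 0.17, adjusted p = 0.000326), called without any 1 array. Pdp2, a phosphatase that activates pyruvate dehydrogenase, had values of 5.72, 5.92 and 5.60 in IP0 hearts, against 6.50, 6.20 and 6.22 in sham hearts (log2 fold change -0.56, adjusted p = 0.0388). These were the only calls among 39 genes of glycogen and glucose use (median 0.03).

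Of 22 targets of PPAR-alpha, the receptor that turns on lipid use, 3 fell, none rose and the median was -0.19. Ehhadh, the bifunctional enzyme of peroxisomal beta-oxidation, had values of 6.59, 6.17 and 6.67 in IP0 hearts, against 7.45, 7.81 and 7.33 in sham hearts. Its log2 fold change was -1.05 (standard error 0.20, adjusted p = 0.0136), a level of 0.483 times that of sham hearts. Cpt1a, a carnitine palmitoyltransferase that admits long-chain fatty acids to mitochondria, had values of 8.39, 8.41 and 8.61 in IP0 hearts, against 9.02, 9.09 and 8.96 in sham hearts (log2 fold change -0.55, adjusted p = 0.0189). Plin2, a coat protein of lipid droplets, had values of 9.12, 9.09 and 9.17 in IP0 hearts, against 9.77, 9.66 and 9.54 in sham hearts (log2 fold change -0.53, adjusted p = 0.0124). With 1 of the 6 arrays left out, Ehhadh and Plin2 were called in 4 and Cpt1a in 2 of the 6 fits. Ehhadh and Cpt1a were also the only calls among 31 genes of fatty acid oxidation, whose median was -0.003. Cpt1b was not among the 31. Ucp3, a mitochondrial uncoupling protein, had a log2 fold change of -1.29 and did not pass (adjusted p = 0.0897). Without the arrays that have Myl7 above 5, which leaves 1 wildtype sham heart, the log2 fold changes were -0.85 for Ehhadh, -0.49 for Cpt1a and -0.41 for Plin2, with adjusted p values of 0.222, 0.36 and 0.443. With Myl7 as a covariate they were -1.20, -0.50 and -0.52, with adjusted p values of 0.00447, 0.0563 and 0.0374.

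Gclm, a subunit of the enzyme that limits glutathione synthesis, had values of 7.68, 7.68 and 7.70 in IP0 hearts, against 8.30, 8.59 and 8.29 in sham hearts (log2 fold change -0.71, adjusted p = 0.00595). It was the only call among 25 genes of antioxidant defence and held without any 1 array. Slc25a22, a mitochondrial glutamate carrier, fell by 0.88 on the log2 scale (adjusted p = 0.0121). The next 3 were picked after their values were seen. Hsd17b11, a dehydrogenase found on lipid droplets, fell by 0.66, Nudt7, a peroxisomal hydrolase of coenzyme A, by 0.49, and Fabp4, a fatty acid carrier of adipocytes and endothelium, by 0.43 on the log2 scale. Their adjusted p values were 0.00983, 0.0367 and 0.0229. Markers of adipocytes, of which Fabp4 was not one here, had mean values of 2.68 to 2.95 in IP0 hearts and 2.75 to 3.14 in sham hearts.

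The next 4 falls were also picked after their values were seen, and no list of their kind was counted. Ifitm3, an interferon-induced membrane protein that blocks entry of viruses, had values of 9.95, 9.87 and 9.89 in IP0 hearts, against 10.69, 10.35 and 10.56 in sham hearts. It had the smallest p of all falls (log2 fold change -0.63, adjusted p = 0.00148) and held without any 1 array. Oasl1 and Oasl2, of the oligoadenylate synthetase-like family, fell by 0.53 and 0.67 on the log2 scale, with adjusted p values of 0.016 and 0.0464. Igf1r, the receptor of insulin-like growth factor 1, fell by 0.54 (adjusted p = 0.0308). The largest falls also included Abhd1 (log2 fold change -0.99), Dixdc1 (-0.85), Clec4a2, a lectin receptor of myeloid cells (-0.83), Hgh1 (-0.81), Commd5 (-0.78), Zfp688 (-0.77) and Olfr495, an olfactory receptor gene (-0.93). All had adjusted p values between 0.0223 and 0.0443, and none was called in all 6 fits with 1 array left out. In IP0 hearts Olfr495 had values of 2.40, 2.36 and 2.37, and Clec4a2 went down to 2.18. These lay below the lower quartile of an array (2.72 to 2.80), and whether they stand above background was not tested.

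The lists for several systems known from preconditioning held no call at this time point. None of the 36 genes listed for the hypoxia-inducible factor and its targets passed (median 0.06). Hk2, hexokinase 2, was closest at a log2 fold change of 0.35 (adjusted p = 0.0568). The list does not hold every known target, and Ddit4, called above, was not on it. None of 15 genes of adenosine production and uptake passed (median 0.04). No adenosine receptor gene was among the 15, so the receptors were not examined. Nt5e, the ectonucleotidase CD73 that makes adenosine outside cells, had values of 7.88, 8.39 and 8.08 in IP0 hearts and 7.41, 7.60 and 7.81 in sham hearts (adjusted p = 0.353). None of 29 ion channel genes passed, among them Kcnj11, the pore of the muscle KATP channel (log2 fold change 0.37, adjusted p = 0.0728), nor did any of 21 genes of branched-chain amino acid degradation (median 0.07).

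Of 20 circadian clock genes 1 was called, Nfil3, a leucine zipper repressor that opposes clock output factors such as Tef. Nfil3 had values of 7.34, 7.68 and 7.54 in IP0 hearts, against 6.13, 5.85 and 5.99 in sham hearts (2.89-fold, adjusted p = 0.00245), and the call held without any 1 array. Arntl, which encodes the CLOCK partner BMAL1, had values of 7.61, 7.49 and 7.61 in IP0 hearts, against 6.65, 6.12 and 6.29 in sham hearts, and did not pass (log2 fold change 1.22, adjusted p = 0.167). Per2 had values of 4.66, 5.36 and 5.32 in IP0 hearts, against 5.33, 5.94 and 6.10 in sham hearts. The groups overlapped, with a log2 fold change of -0.68 (adjusted p = 0.297).

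Per2 KO hearts had the same protocol on arrays that share no sample with the wildtype comparison. The Per2 probe set did not separate the genotypes in IP0, sham or I30R60 hearts. In I30 hearts its values were 6.44, 6.31 and 5.89 in wildtype and 5.30, 4.94 and 5.04 in the knockout, without overlap. Hearts labelled Per2 KO had values of 5.19, 5.65 and 5.60 after IP0 and 5.69, 5.65 and 5.63 in sham hearts, within the wildtype range, and where its probes lie relative to the mutation is not given in the sources used here. In the knockout, 22 genes rose and 8 fell in IP0 hearts relative to sham hearts, 0.117% and 0.0425% of those tested. Of the 98 wildtype rises, 90 had a positive fold change in knockout hearts, with a median log2 fold change of 0.44, and 17 were also called. Of the 62 wildtype falls, 57 had a negative fold change in the knockout (median -0.18), and Ifitm3 alone was also called. The change was smaller in the knockout for 91 of the rises and all 62 falls, and a choice of genes that passed in wildtype hearts by itself favours this.

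Some of the same early genes rose in knockout hearts. Atf3 had values of 10.76, 10.59 and 10.32 in knockout IP0 hearts, against 8.45, 8.41 and 8.01 in knockout sham hearts (log2 fold change 2.27, adjusted p = 0.000929). Its IP0 values were in the wildtype range and its sham values above that of the wildtype. Otud1 had values of 8.81, 8.73 and 8.89 in knockout IP0 hearts, against 7.69, 7.27 and 7.56 in knockout sham hearts, again with sham hearts above the wildtype ones (log2 fold change 1.31, adjusted p = 0.0375). Gadd45g rose by 1.69, Mir1a-2 by 1.82 and Jun by 1.23 on the log2 scale. Ppp1r3c had values of 9.25, 9.32 and 9.64 in knockout IP0 hearts, against 9.23, 9.44 and 8.69 in knockout sham hearts, which overlapped (log2 fold change 0.29, adjusted p = 0.717). Ypel2, with a 2.01-fold rise in wildtype hearts, had a log2 fold change of 0.04 in the knockout (adjusted p = 0.978). Its sham values were 7.11, 6.87 and 6.75 in the knockout and 6.52, 6.35 and 6.13 in the wildtype. In Ppp1r3c too, every knockout sham heart lay above every wildtype sham heart.

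The difference between the genotypes was tested directly as an interaction, and no gene passed (0% of those tested), nor in any alternative run for it. An unadjusted p under 0.05 by limma was reached by 905 of 18820 genes, fewer than that threshold alone would give with no differences. The wildtype response exceeded that of the knockout by 1.54 on the log2 scale in Otud1 (standard error 0.36, adjusted p = 0.672), by 1.04 in Ppp1r3c (standard error 0.24, adjusted p = 0.672) and by 0.97 in Ypel2 (standard error 0.22, adjusted p = 0.672). A difference between the genotypes was therefore not shown for any single gene, and with 3 hearts a group the standard error of an interaction had a median of 0.194. Myl7 was raised in 1 IP0 heart (9.12) and 1 sham heart (11.21) of the knockout, and its part in these values was not tested.

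**Figure D3:**
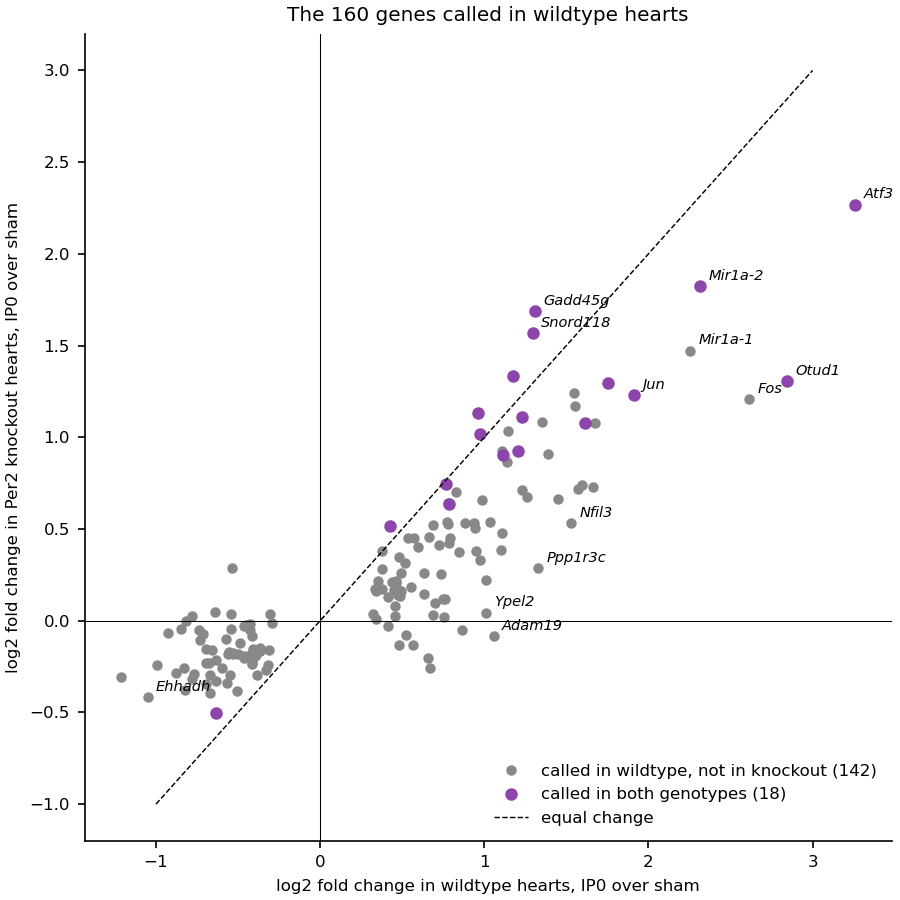
Log2 fold change of the 160 genes called in wildtype hearts, IP0 over sham, in wildtype (x axis) and in Per2 KO hearts (y axis). Purple points (18) were also called in the knockout, grey points (142) were not, and the dashed line marks equal change. Most points lie between the dashed line and 0 on the y axis, with Ypel2 near 0, and Gadd45g and Snord118 lie above the line.

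Preconditioning was set against the longer ischemia of the I30 hearts. This contrast does not use the sham arrays, but it shares the IP0 arrays on which the 98 rises and 62 falls were chosen, which by itself favours rises that are higher and falls that are lower, here and against I30R60 hearts. In IP0 hearts, 332 genes were higher (1.76%) and 232 lower (1.23%) than in I30 hearts. Against these 564 genes, 261 to 287 were called without any 1 IP0 array or without I30 replicate 1, and 456 and 567 without I30 replicate 2 or 3. With quantile normalization 249 were called. The interquartile range of an array was 4.03 to 4.06 in IP0 hearts and 3.76 to 3.87 in I30 hearts, and its part in these counts was not tested further. Of the 98 genes that rose over sham, 52 were also higher than in I30 hearts and none was lower. Of the 62 falls, 3 were lower than in I30 hearts and none was higher. Of the 26 rises in the AP-1, early transcription factor and feedback lists, 17 were among the 52, as were 35 of the other 72 rises. Egr1 had values of 10.11, 10.33 and 10.28 in IP0 hearts, against 9.19, 9.15 and 9.31 in I30 hearts, a difference of 1.02 (adjusted p = 0.000188), and I30 hearts lay at the level of sham hearts. Ccn1 differed by 1.33 and Plk2 by 1.22 on the log2 scale, with adjusted p values of 0.000188 for both. Fos had values of 7.79, 7.50 and 7.62 in I30 hearts, below every IP0 heart (difference 1.32, adjusted p = 0.0482). Ppp1r3c differed by less than its error, with values of 9.47, 9.40 and 9.57 in I30 hearts (difference 0.08, standard error 0.17, adjusted p = 0.846).

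Against I30R60 hearts, which had the longer ischemia and an hour of reperfusion, 61 genes were higher (0.324%) and 173 lower (0.919%) in IP0 hearts. Against these 234 genes, 60 to 94 were called without any 1 IP0 array, and 72, 218 and 135 without I30R60 replicate 1, 2 or 3. Of the 98 rises, 13 were higher in IP0 than in I30R60 hearts and 8 were lower. The muscle microRNA genes were on the higher side. Mir1a-2 had values of 2.27, 2.22 and 2.11 in I30R60 hearts, all below the IP0 hearts, with a difference of 2.66 (standard error 0.20, adjusted p = 5.43e-07). Mir1a-1 differed by 2.20 (adjusted p = 0.00101) and Mir133a-1 by 1.70 (adjusted p = 0.000803). On the lower side were Jun, with a difference of -0.77 (adjusted p = 0.0375), Adamts1 with -0.93 (adjusted p = 0.00545) and Arid5a with -1.13 (adjusted p = 0.0183). The co-chaperone Dnajb1, not called against sham hearts, was lower by 2.54 in IP0 than in I30R60 hearts (adjusted p = 3.25e-05). Of the 98 rises, 11 were higher in IP0 hearts than after both longer ischemias, among them both Mir1a genes, Rgs1 and Myh7b. Over all genes this share was not counted, and it cannot exceed the 0.324% that were higher than in I30R60 hearts. The choice of the 98 rises on the same IP0 arrays by itself favours such genes.

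**Figure D4:**
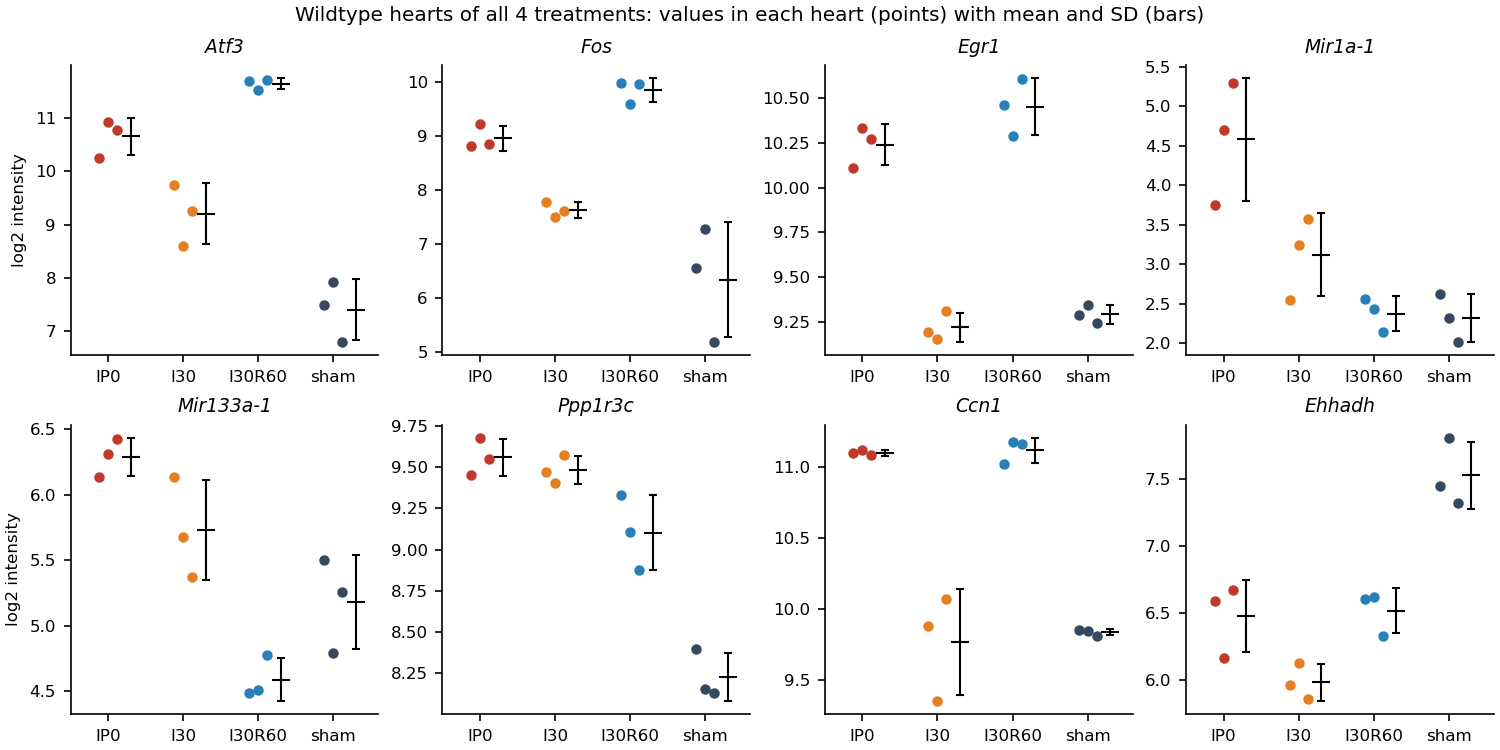
Log2 intensity (y axis) of 8 genes in the wildtype hearts of IP0, I30, I30R60 and sham, with 3 hearts each as points and the mean with its SD as a bar. Mir1a-1 and Mir133a-1 have their highest means in IP0 hearts, Ppp1r3c overlaps between IP0 and I30 hearts, and Ehhadh is lower in all 3 treatments than in sham hearts.

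Changes of the other 2 treatments against the same sham hearts are given for orientation only, since the 3 comparisons share those arrays. Atf3 had log2 fold changes of 3.26 in IP0, 1.80 in I30 and 4.25 in I30R60 hearts. Ehhadh had -1.05, -1.54 and -1.01 in the same order, and Mir1a-2 had 2.32, 1.02 and -0.35. The median over the 98 rises was 0.78 in IP0, 0.26 in I30 and 0.63 in I30R60 hearts, and over the 62 falls it was -0.55, -0.40 and -0.37.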

How the data were processed

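Total RNA of the left ventricle was hybridized to Affymetrix Mouse Gene ST arrays (version 1.1 in the paper's methods, 2.1 in the series text). The authors deposited 1 log2 intensity per probe set and array, obtained with RMA in the Partek software, and no detection calls are used; the genome build of the probe sets is not given in the sources used here. RMA scales the arrays to each other, so a shift of most genes one way could be reduced or lost. RNA extraction is given as Trizol in the labels and as a column kit in the methods.

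Of 35555 probe sets, 21218 are paired with 1 gene symbol, 1881 with several and 12456 with none listed. For 1386 genes with several probe sets, the probe set whose 24-array mean was highest represents the gene, giving 18820 genes, and 18790 matched RefSeq. All tests used the limma package (3.58.1, under R 4.3.3): lmFit with a mean per group over 24 arrays, 16 residual degrees of freedom, eBayes, and Benjamini-Hochberg adjustment over all genes. The median standard error was 0.137 and the median SD within groups 0.172, and the number of arrays limits the precision. Nothing in the labels names a batch. No 2 arrays held identical values, and the lowest correlation within a wildtype IP0 or sham group was 0.981. The script was tested on simulated data.

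The gene lists (22 of pathways, 13 of cell types) and the members compared were chosen with earlier results of these data known, and no list was tested as a set. Named genes were the 20 largest rises, the 12 largest falls, called members of lists, those nearest the threshold in lists without a call, genes the study names for IP0, clock genes, cell type markers and the 5 smallest p values of each test against another genotype or treatment. Some of these are covered by counts only, and Fosb, Mib1, Pank1, Ucp3 and all genes marked as picked after their values were seen are additions. Alternatives covered the arrays in the model, eBayes options, array weights, scaling, a minimum level, the probe set rule, a replicate block, the methods' t-test, a 2-fold minimum, Myl7 and each array left out. Motifs and sequences were read from RefSeq tables in Python 3.11.15 with pandas 2.3.3, using the most upstream start, and figures were drawn with matplotlib 3.10.9.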

Additional observations from a re-analysis of the deposited data

Results flagged for a closer look

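Probe sets outside the gene comparison also carried a signal that was higher or lower in IP0 than in sham hearts. In a fit of all 35555 probe sets, 10 of the 12456 probe sets without a gene in the pairing were higher and 7 were lower in IP0 hearts. Among the 1881 probe sets paired with several symbols, 3 were higher and 5 were lower. They are not named here.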

How the results depend on the processing

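All 160 called genes kept their direction under every alternative (141 of 141 where a minimum level of 5 left fewer genes). For most alternatives this was fixed in advance, since in all 160 the IP0 hearts lay on one side of the sham hearts. Leaving arrays out, weighting them or changing the test could then not reverse a direction. Only scaling, the probe set rule and Myl7 as a covariate could have done so. The counts moved more. Against 98 rises and 62 falls, the 6 arrays alone gave 22 and 9, eBayes with trend and robust options 169 and 133, array weights 186 and 153, median centring 160 and 32, a minimum mean log2 value of 5 176 and 156, and a 2-fold minimum 36 and 2. The methods' t-test gave 1 and 0 after adjustment, with 2226 genes at an unadjusted p under 0.05. Quantile normalization (113 and 72) and the mean of all probe sets (89 and 56) stayed within 1.5 times. Myl7 as a covariate gave 54 and 34, and leaving out the arrays with Myl7 above 5, which leaves 1 wildtype sham array, 40 and 5. Leaving out 1 array gave 42 (without sham replicate 3) to 56 (without sham replicate 2) rises and 13 (without sham replicate 1) to 32 (without sham replicate 2) falls. The rises were 51, 43 and 46 without IP0 replicate 1, 2 or 3 and 49 without sham replicate 1, and the falls 28, 14 and 24 without IP0 replicate 1, 2 or 3 and 20 without sham replicate 3. These fits have fewer arrays and assume that a reduced group varies like the others.

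Whether replicate numbers pair the samples could not be decided from 3 arrays a group. Deviations of arrays with the same number correlated by 0.0572, -0.0262 and 0.0711, and 3 of 6 arrays correlated best with their own number. The mean correlation was 0.0341 for the same number and -0.0169 for other numbers. The replicate block in the 6 arrays gave 0 rises and 0 falls (2243 genes at an unadjusted p under 0.05), and in all 24 arrays, added after seeing the data, 99 and 52. The replicate block left the interaction at 0 genes, and gave 608 genes between IP0 and I30 and 211 between IP0 and I30R60.

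The interaction stayed at 0 genes in each alternative run for it. Those did not include array weights, the mean of all probe sets or the Myl7 alternatives. The 564 genes between IP0 and I30 became 249 with quantile normalization and 261 (without IP0 replicate 1) to 567 (without I30 replicate 3) with 1 array left out. The 234 genes between IP0 and I30R60 became 366 with trend and robust options, 425 at the minimum level, and 60 (without IP0 replicate 1) to 218 (without I30R60 replicate 2) with 1 array left out. Where a count moved, the cause was not tested beyond the smaller number of arrays or genes.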
